A study of Mus musculus with 12 samples.

Results

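The EGF family of growth factors and their receptors was followed in mouse kidneys with and without cysts. Its 10 members were chosen by name: the ligand genes *Egf*, *Tgfa*, *Areg*, *Ereg*, *Hbegf* and *Btc* and the receptor genes *Egfr*, *Erbb2*, *Erbb3* and *Erbb4*. They are 10 of the 54532 genes in the count table, and all 10 were among the 24642 genes that passed the cutoff on low counts.

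RNA-seq was performed on total RNA from flash-frozen whole kidneys of 12 C57BL/6 mice killed at 18 days of age, in 4 groups of 3 mice. All 12 mice carried the *Pkd1* RC missense allele opposite a floxed *Pkd1* allele. Ksp-Cre deletes the floxed allele in some kidney tubule cells and leaves it intact in the other cells of the organ. The noncystic mice (*Pkd1* RC/F, written RC/+) had no Cre, and the cystic mice (*Pkd1* RC/-) carried Ksp-Cre. Within each of these, *Pkd2* was either unedited (+/+) or lacked, on both alleles, the binding motif of the microRNA miR-17 in its 3′-UTR (Δ17/Δ17), a deletion made by CRISPR/Cas9 in the Ksp-Cre; *Pkd1* RC line and bred through the germline, so that every cell carried it. The comparisons asked how the family differed between cystic and noncystic kidneys and whether the *Pkd2* deletion changed it.

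Ligands of the EGF family are made as membrane-anchored precursors that proteases release from the cell surface, and they activate ErbB receptor tyrosine kinases, which pair with each other and signal to the Ras-MAPK and PI3K-Akt cascades. EGF, TGF-α and amphiregulin bind EGFR, while HB-EGF, betacellulin and epiregulin also bind ErbB4. ErbB2 has no known ligand of its own and ErbB3 is a weak kinase, so both signal as partners. In the healthy kidney *Egf* is made mainly by cells of the thick ascending limb and the distal convoluted tubule, and ErbB signaling has long been studied in polycystic kidneys for its part in the growth of tubule cells.

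The genotype of these mice turns on a sequence, so the seed match of miR-17 was looked up in the members as well as in *Pkd2*. The mature microRNA is shown with its seed, bases 2 to 8, in capitals, and the mRNA windows, written 5′ to 3′ as DNA of the forward strand of GRCm38 (GENCODE M21 transcripts, the strand of all 4 genes), with the match in capitals. The microRNA sequence is from RefSeq.
mmu-miR-17-5p: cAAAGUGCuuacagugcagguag
*Pkd2*, chr5:104503807-104503829: tgttataattttctGCACTTTaa
*Tgfa*, chr6:86273587-86273609: caccaccacgcccaGCACTTTtt
*Egfr*, chr11:16912025-16912047: gcctctctcctgatGCACTTTgg
*Ereg*, chr5:91093225-91093247: ggggagcataaacaGCACTTTca
*Ereg*, chr5:91093357-91093379: tgcactctgccattGCACTTTgt
The *Pkd2* window is the unedited reference, and where the Δ17 allele was cut was not analysed here. Of the 10 members, 3 held the 7 bases in their longest annotated 3′-UTR, namely *Tgfa*, *Egfr* and *Ereg*, against 12.2% of 21173 genes with an annotated 3′-UTR. These 3′-UTRs have 3764, 6303 and 3501 bases, and those of the members without a match have 253 to 7855. A longer 3′-UTR offers more places for a match, and the share over all genes was not matched for length. In *Pkd2* the match is followed by an A, which extends it to the 8 bases of an 8-mer seed site, and none of the 4 matches in the members has this base. A match of letters is a description and not a site shown to bind.

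On GRCm38, *Egf* (ENSMUSG00000028017) lies on the reverse strand at chr3:129677565-129755316 and *Tgfa* (ENSMUSG00000029999) on the forward strand at chr6:86195223-86275719. *Ereg* (chr5:91074622-91093646), *Areg* (chr5:91139599-91148432) and *Btc* (chr5:91357261-91402994, reverse strand) stand together within 0.328 Mb, on the chromosome of *Pkd2* and 13.1 to 13.4 Mb from it. *Hbegf* lies at chr18:36504927-36515805. Among the receptors, *Egfr* lies at chr11:16752203-16918158, *Erbb2* at chr11:98412470-98437716, *Erbb3* at chr10:128567523-128589652 and *Erbb4* at chr1:68032186-69108059. The strand setting of the counting was not stated, and 4.43% and 5.38% of the exon bases of *Egf* are shared with a pair of antisense genes, so that reads there cannot be assigned to a gene. For *Ereg*, *Tgfa* and *Erbb2* that share was 3.42%, 1.82% and 0.173%, and the other members shared no exon bases with another gene.

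Total counts ran from 18800307 to 24453033 per mouse. Composition (TMM) factors were 0.933 to 0.972 in the noncystic and 1.04 to 1.08 in the cystic mice, and without them the median log2 fold change of all genes moved by 0.16 and 0.15 in the cystic-to-noncystic comparisons. *Pkd2* itself stood at 226 CPM (reads relative to the TMM-scaled library size) in cystic +/+ and 326 CPM in cystic Δ17/Δ17 kidneys (log2 fold change 0.53, edgeR quasi-likelihood test, Benjamini-Hochberg adjusted p = 0.00250). In the noncystic groups it stood at 210 and 278 CPM, which did not overlap. The log2 difference was 0.40 (95% interval 0.24 to 0.57, edgeR unadjusted p = 8.21e-05). This difference missed the threshold (edgeR adjusted p = 0.771), in a comparison where 0.00406% of all genes tested were called. The interaction for *Pkd2* was 0.13 (edgeR adjusted p = 0.818). Counts over the whole *Pkd1* gene cannot show the floxed deletion. By their levels of *Xist* and *Ddx3y*, every group held mice of both sexes. The labels number the mice but do not name their litters, so p-values measure the spread between these mice. In bulk kidney RNA, fewer cells of a type and less RNA per cell cannot be told apart.

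Among the ligands, *Egf* was the most abundant transcript of the family in noncystic kidneys and fell steeply in cystic kidneys. Noncystic +/+ mice gave 1796, 1597 and 1860 CPM of *Egf*, and cystic +/+ mice gave 267, 167 and 194 CPM. The highest cystic mouse stood far below the lowest noncystic mouse. The mean fell from 1751 ± 137 to 209 ± 51.8 CPM (SD, n = 3 mice each), a log2 fold change of -3.07 (SE, the standard error, 0.16) or 8.37-fold (edgeR quasi-likelihood test, adjusted p = 4.76e-09).

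With the *Pkd2* deletion, *Egf* was at 1855, 2539 and 2151 CPM in noncystic mice and at 432, 516 and 418 CPM in cystic mice. Again no cystic mouse reached a noncystic one, and each cystic Δ17/Δ17 mouse was above each cystic +/+ mouse. The cystic-to-noncystic log2 fold change was -2.26 (SE 0.16, 4.79-fold, adjusted p = 1.53e-07). Set against cystic +/+ kidneys, *Egf* was higher with the deletion by 1.12 on the log2 scale (SE 0.15, 2.18-fold, adjusted p = 0.00180), and it still stood below the noncystic mice. Between the noncystic groups the mice overlapped, with a log2 difference of 0.32 (95% interval -0.0047 to 0.64, adjusted p = 0.771). The difference between both cystic-to-noncystic changes, the interaction, was 0.80 for *Egf* (SE 0.22), which missed the threshold (edgeR quasi-likelihood test, adjusted p = 0.266).

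Betacellulin, a ligand of EGFR and ErbB4, showed the largest rise of the family in +/+ kidneys. *Btc* stood at 10.3, 9.01 and 12.2 CPM in noncystic +/+ mice and at 86.3, 62.3 and 67.9 CPM in cystic +/+ mice. All cystic mice were several fold above all noncystic mice. The log2 fold change was 2.78 (SE 0.18, 6.86-fold, edgeR adjusted p = 1.80e-08). With the deletion *Btc* went from 11.8, 9.60 and 7.26 CPM in noncystic to 42.5, 59.7 and 49.3 CPM in cystic mice, a log2 fold change of 2.40 (SE 0.18, adjusted p = 2.09e-07). The 3 cystic Δ17/Δ17 mice all lay below the 3 cystic +/+ mice. That log2 difference of -0.52 (95% interval -0.85 to -0.18) did not pass the threshold over all genes in edgeR (adjusted p = 0.109), and did so in DESeq2 (adjusted p = 0.0386).

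*Tgfa*, which encodes TGF-α, had 6.05 to 7.42 CPM in noncystic +/+ mice and 20.1, 22.2 and 22.3 CPM in cystic +/+ mice. The groups were far apart, with a log2 fold change of 1.69 (SE 0.16, 3.22-fold, edgeR adjusted p = 6.13e-07). With the deletion, noncystic mice gave 7.36, 11.0 and 7.15 CPM and cystic mice 15.4, 15.1 and 17.5 CPM. The mouse at 11.0 CPM stood above the rest of its group and still below every cystic mouse. The change with the deletion was 0.91 (SE 0.16, adjusted p = 0.000387). Cystic Δ17/Δ17 mice lay below all cystic +/+ mice, by -0.43 on the log2 scale (95% interval -0.75 to -0.11), which missed the threshold (adjusted p = 0.168). The interaction was -0.78 (SE 0.22, adjusted p = 0.305).

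*Hbegf*, the gene of heparin-binding EGF-like growth factor, was higher in cystic kidneys of either *Pkd2* genotype. It stood at 21.9, 23.6 and 21.5 CPM in noncystic and at 42.3, 55.6 and 46.2 CPM in cystic +/+ mice, a log2 fold change of 1.11 (SE 0.13, 2.15-fold, edgeR adjusted p = 6.19e-06). With the deletion, 21.3, 19.5 and 22.2 CPM in noncystic mice compared with 35.5, 42.4 and 52.9 CPM in cystic mice, a log2 fold change of 1.05 (SE 0.13, adjusted p = 2.42e-05). Cystic mice were above noncystic mice throughout. The cystic groups overlapped, and their log2 difference was -0.14 (95% interval -0.41 to 0.13, adjusted p = 0.705).

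Amphiregulin and epiregulin, ligands known from wounded and inflamed epithelia, were near the limit of detection. *Areg* had 1, 1 and 7 reads in noncystic +/+ mice and 13, 18 and 12 reads in cystic +/+ mice. These groups did not overlap, and the fitted log2 fold change was 1.99 (95% interval 0.53 to 3.44, edgeR adjusted p = 0.0363). The call rests on few reads: it was lost without noncystic mouse 19 (adjusted p = 0.138) or 20 (adjusted p = 0.135), without cystic mouse 26 (adjusted p = 0.113) or 27 (adjusted p = 0.0557), and with sex in the fit (adjusted p = 0.0610). With the deletion, noncystic mice had 3, 16 and 7 reads and cystic mice 12, 10 and 9, with a log2 difference of 0.08 (95% interval -1.22 to 1.37). *Ereg* had 0 to 4 reads in the 6 noncystic and 2 to 11 reads in the 6 cystic mice, and its difference was not detectable at this depth (adjusted p = 0.121 in +/+ and 0.617 in Δ17/Δ17 mice).

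**Figure D1:**
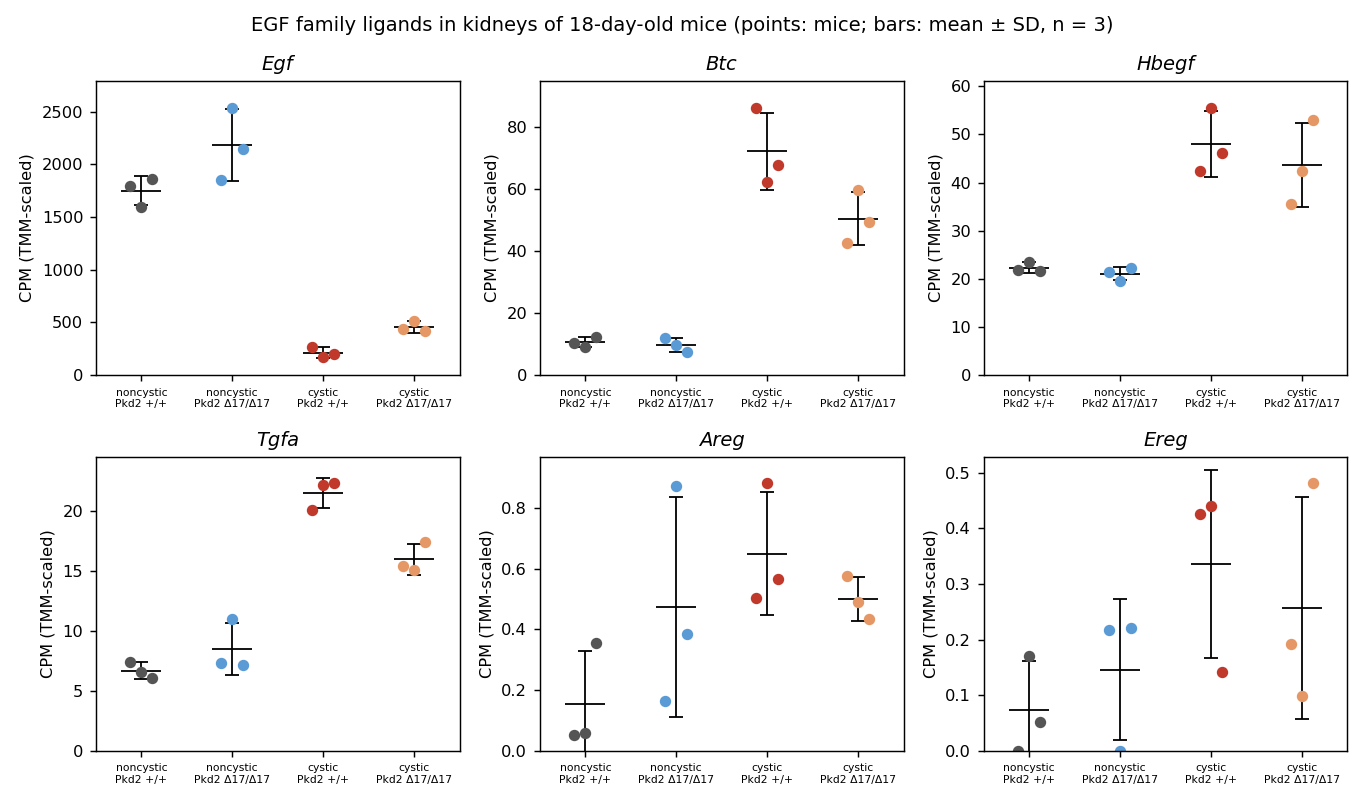
Level of each EGF family ligand in CPM (vertical axis, linear, from 0, scaled separately for each gene) in the 4 groups. Points are mice, and bars give the mean ± SD of 3 mice, cut off at 0 for *Areg* and *Ereg*. *Egf* is at 167 to 516 CPM in cystic and at 1597 to 2539 CPM in noncystic mice, while *Btc*, *Hbegf* and *Tgfa* are higher in every cystic mouse than in any noncystic mouse.

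The receptors moved little. *Erbb2* was the most abundant of them, with 108, 107 and 127 CPM in noncystic and 125, 120 and 134 CPM in cystic +/+ mice, and these groups overlapped (log2 fold change 0.15, 95% interval -0.02 to 0.31, edgeR adjusted p = 0.186). *Egfr*, the receptor shared by all 6 ligands, stood at 56.6, 49.1 and 54.6 CPM in noncystic and at 58.4, 55.6 and 50.9 CPM in cystic +/+ mice. Its log2 fold change was 0.04 with a 95% interval of -0.16 to 0.24 (adjusted p = 0.800).

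*Erbb3*, the receptor partner with a weak kinase, had 52.8 to 60.1 CPM in noncystic and 62.1 to 65.5 CPM in cystic +/+ mice. The groups did not overlap, but the log2 fold change of 0.21 (95% interval 0.02 to 0.41) missed the threshold (edgeR adjusted p = 0.0944). In noncystic Δ17/Δ17 mice *Erbb3* stood at 73.1, 78.2 and 67.4 CPM, above every noncystic +/+ mouse. This log2 difference of 0.40 (SE 0.09, 95% interval 0.20 to 0.59) had an unadjusted p of 0.000535 in the edgeR quasi-likelihood test. It missed the threshold over all genes (edgeR adjusted p = 0.771). Cystic Δ17/Δ17 mice, at 60.6, 76.9 and 72.2 CPM, overlapped with their noncystic counterparts (log2 fold change -0.06, adjusted p = 0.710).

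*Erbb4*, which binds neuregulins as well as some EGF family ligands, ranged from 35.9 to 53.3 CPM in noncystic +/+ mice. Cystic +/+ mice gave 36.7, 41.1 and 37.3 CPM and cystic Δ17/Δ17 mice 46.5, 52.0 and 50.3 CPM. The cystic groups did not overlap, yet the log2 difference of 0.37 (95% interval 0.12 to 0.62) missed the threshold (edgeR adjusted p = 0.122). Between cystic and noncystic +/+ mice the log2 difference was -0.20 (adjusted p = 0.224), which became -0.35 (adjusted p = 0.0249) without noncystic mouse 20, the lowest of its group.

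The scaling changed some receptor results. With library totals in place of TMM factors, *Erbb2* and *Erbb3* were called higher in cystic +/+ kidneys (log2 fold changes 0.31 and 0.37, edgeR adjusted p = 0.00503 and 0.00492), and in Δ17/Δ17 kidneys *Erbb2* was called higher (0.23, adjusted p = 0.0343) while *Egfr* turned from -0.04 to 0.11 and *Erbb3* from -0.06 to 0.09, neither called. The other receptor changes kept their sign with library totals in both comparisons. The rises of *Btc*, *Hbegf* and *Tgfa* and the fall of *Egf* were called under each alternative tried in both comparisons.

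**Figure D2:**
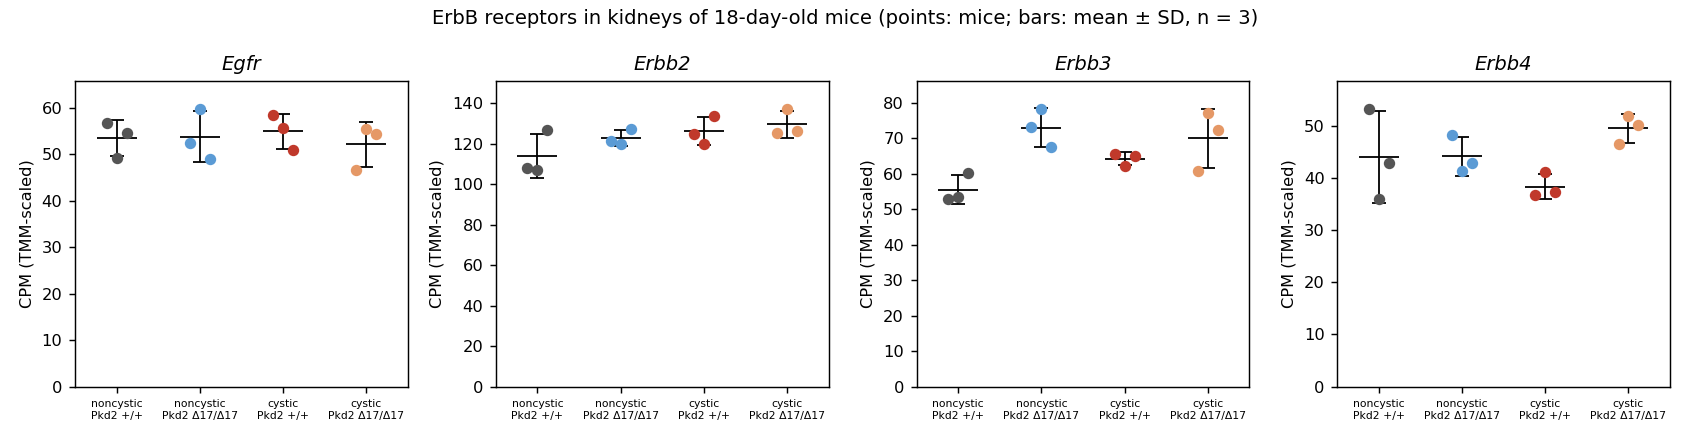
Level of each ErbB receptor in CPM (vertical axis, linear, from 0, scaled separately for each gene) in the 4 groups, with points for mice and bars for the mean ± SD of 3 mice. *Egfr* spans 46.5 to 59.8 CPM and *Erbb2* 107 to 137 CPM over all 12 mice. *Erbb3* is lowest in noncystic +/+ mice, and *Erbb4* is higher in cystic Δ17/Δ17 than in cystic +/+ mice.

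Counted over the family, 4 members were called higher and 1 lower of 10 between cystic and noncystic +/+ kidneys, in a comparison where 31.1% of all genes tested were called (16.9% higher and 14.2% lower). All 5 calls were ligands. Of the 4 receptors 0 were called in edgeR, with 1 at an unadjusted p under 0.05 (beside 39.3% of all genes), and 2 were called by limma-trend on library totals. Groups did not overlap for 6 members, against 41.7% of all genes. With the deletion, 3 members were called higher and 1 lower, beside 23% of all genes (12.8% higher and 10.2% lower), and the same number stood at an unadjusted p under 0.05, beside 32.8%, and did not overlap, beside 37.9%.

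Between the cystic groups 1 member, *Egf*, was called higher with the deletion and 0 lower, where 2.23% of all genes were called (1.19% higher and 1.04% lower). At an unadjusted p under 0.05 stood 4 members (*Egf*, *Btc*, *Erbb4* and *Tgfa*), beside 14.3% of all genes, and the same 4 did not overlap, beside 19%. Limma-trend called 0 members lower there and DESeq2 called 1, *Btc*. Between the noncystic groups 0 members were called by edgeR, limma-trend or DESeq2, beside 0.00406% of all genes in edgeR, with 3 at an unadjusted p under 0.05 (*Erbb3*, *Tgfa* and *Areg*), beside 6.31% of all genes, and 1, *Erbb3*, without overlap, beside 10.8% of all genes.

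For the interaction edgeR called 0 members, beside 0.0122% of all genes (0.00812% higher and 0.00406% lower), with *Egf*, *Tgfa* and *Erbb4* at an unadjusted p under 0.05, beside 8.33% of all genes. Limma-trend called 0 and DESeq2 called *Egf* (0.81, adjusted p = 0.0244), and edgeR called it without cystic +/+ mouse 25 (1.02, adjusted p = 0.0250), the mouse with the highest *Egf* of its group. These comparisons share mice, so their values are set side by side here and no agreement between them was computed.

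**Figure D3:**
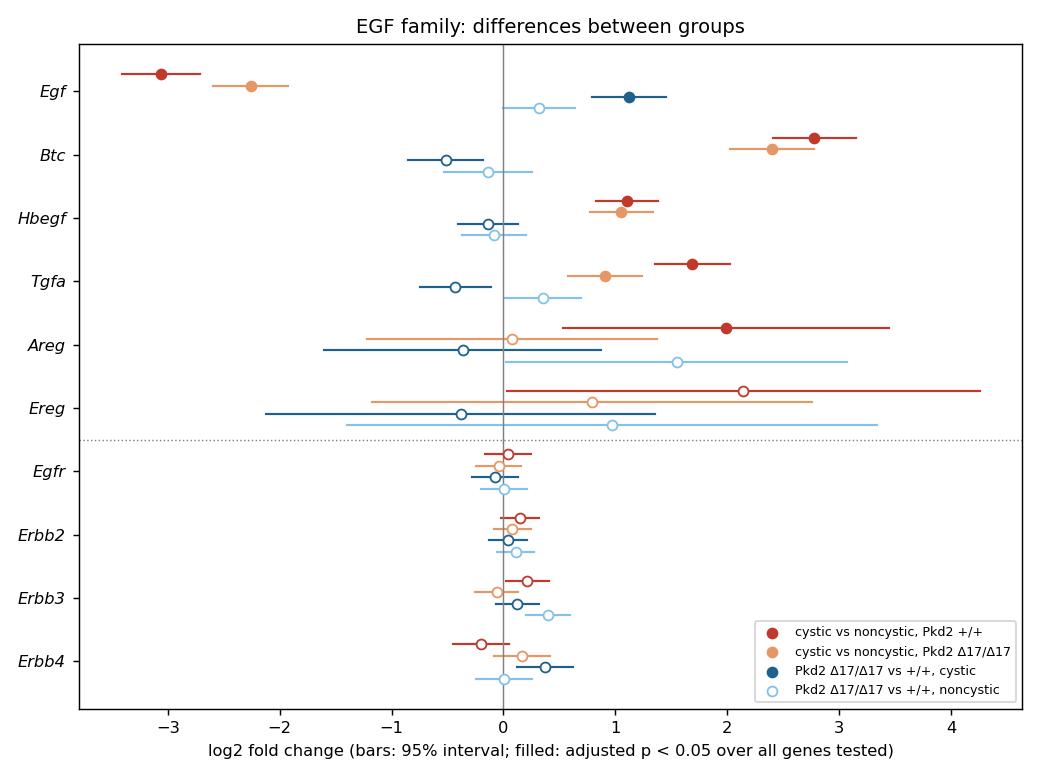
Log2 fold change (horizontal axis) of the 10 members in 4 comparisons, with 95% intervals as bars and filled points for an adjusted p under 0.05 over all genes tested. The points of *Egf* lie at -3.07 and -2.26 for cysts and at 1.12 for the deletion in cystic kidneys. The intervals of *Areg* and *Ereg* are wide, and no receptor point is filled.

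The make-up of the ligand pool was compared on a scale per length, CPM per kilobase of exon, since members differ in length. *Egf* made up 94.7 to 95.2% of the summed 6 ligands in noncystic +/+ mice and 95.2 to 96.3% in noncystic Δ17/Δ17 mice. In cystic +/+ mice it held 42.9, 33.4 and 37.6%, and in cystic Δ17/Δ17 mice 66.1, 64.9 and 59.7%. The cystic groups overlapped neither with each other nor with the noncystic groups, which overlapped. The *Egf* share rests on the length used: its annotated exons total 11275 bases and its longest transcript 4761 bases, and with the longest transcript of each gene the group means became 96.8%, 97.4%, 51.9% and 75.1% in the same order of groups.

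On the exon scale *Btc* held 32.9% ± 1.77 of the ligand pool in cystic +/+ and 17.5% ± 1.25 in cystic Δ17/Δ17 kidneys, from 1.42% ± 0.118 and 1.08% ± 0.381 in the noncystic groups (mean ± SD, n = 3). *Hbegf* held 20.9% ± 5.03 and 14.3% ± 2.94 of the pool in the cystic groups and *Tgfa* 6.95% ± 1.16 and 3.90% ± 0.546, while *Areg* held 1.14% ± 0.454 and 0.655% ± 0.142. The order of *Btc* and *Hbegf* rests on the length used, since with the longest transcript their shares were 21.3% and 20.3% in cystic +/+ and 9.81% and 11.9% in cystic Δ17/Δ17 kidneys. The summed level of all 6 ligands was 163 ± 12.3 CPM per kilobase in noncystic +/+ and 48.4 ± 5.88 in cystic +/+ kidneys, and without *Egf* the other 5 rose from 8.11 ± 0.231 to 29.8 ± 1.49. In Δ17/Δ17 kidneys the sum of these 5 was 8.20 ± 0.469 without and 23.1 ± 3.02 with cysts. The 4 receptors summed to 36.7 to 48.2 CPM per kilobase over all 12 mice, with *Erbb2* at 53.6 to 56.5% of the receptor pool as group means.

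**Figure D4:**
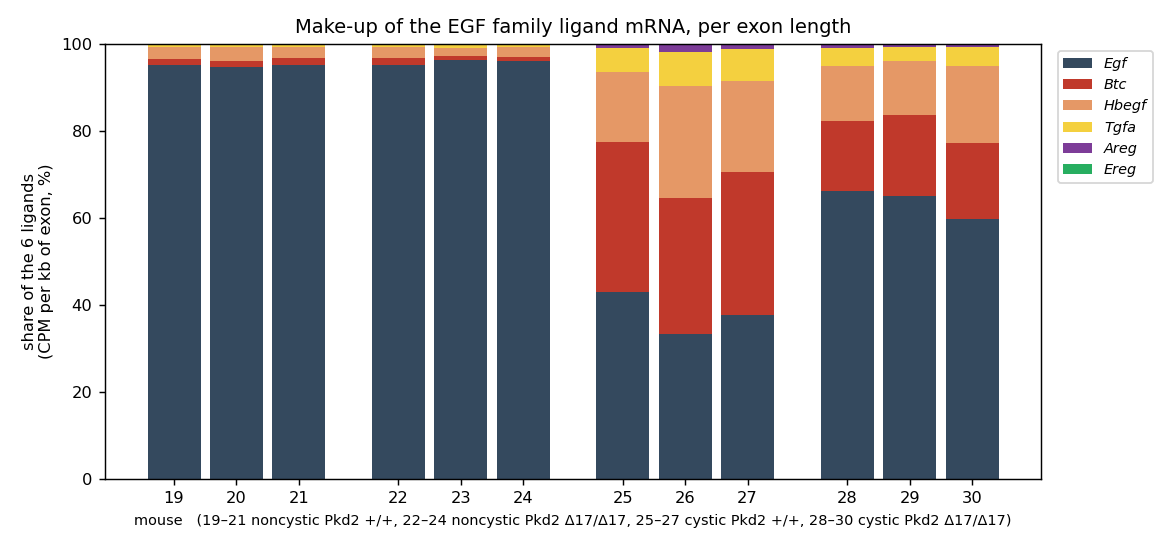
Share of each ligand in the summed CPM per kilobase of exon of the 6 ligands (vertical axis, percent), with a stacked bar for each mouse. *Egf* fills about the whole bar in noncystic mice (94.7 to 96.3%), 33.4 to 42.9% in cystic +/+ mice and 59.7 to 66.1% in cystic Δ17/Δ17 mice.

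In noncystic +/+ kidneys the order of levels per kilobase ran from *Egf* (155) over *Erbb2* (21.9), *Erbb3* (9.21), *Egfr* (4.72), *Hbegf* (4.61), *Erbb4* (3.57), *Btc* (2.32) and *Tgfa* (1.03) to *Areg* (0.128) and *Ereg* (0.0179 CPM per kilobase). Of the neighbours in this order, *Egfr* and *Hbegf* overlapped between mice. In cystic +/+ kidneys the order opened with *Erbb2* (24.2), *Egf* (18.5) and *Btc* (16.0), where each neighbour overlapped with the next, then *Erbb3* (10.7) and *Hbegf* (9.94), which also overlapped. In cystic Δ17/Δ17 kidneys *Egf* (40.4) was first, above *Erbb2* (24.9) without overlap, and *Erbb3* (11.6), *Btc* (11.2) and *Hbegf* (9.02 CPM per kilobase) overlapped in turn. These orders are on exon length and change with it. Per kilobase of the longest transcript, *Egf* was first in every cystic +/+ mouse as well, at 35.0 to 56.0 against 23.9 to 26.7 CPM for *Erbb2*, *Hbegf* overlapped with *Btc* in both cystic groups, and in noncystic +/+ mice it stood above *Egfr* without overlap.

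Of the other ErbB ligands, the neuregulin gene *Nrg1* was higher in cystic +/+ kidneys, at 14.6 ± 3.26 against 3.81 ± 0.0753 CPM (log2 fold change 1.94, edgeR adjusted p = 7.80e-07), and *Nrg4* was lower, at 1.63 ± 0.442 against 4.25 ± 1.42 CPM (-1.37, adjusted p = 0.00336). With the deletion the same pair stood at 1.64 (adjusted p = 1.27e-05) and -1.25 (adjusted p = 0.00882). *Nrg2* was not called (0.46, adjusted p = 0.368), *Epgn*, the gene of epigen, had 0 reads in all noncystic +/+ mice and 1 to 4 in cystic +/+ mice, and *Nrg3*, with at most 1 read in any mouse, did not pass the cutoff. None of the 4 tested was called between the cystic groups, beside 2.23% of all genes. *Nrg1* had a log2 difference there of -0.59 (edgeR adjusted p = 0.0972) and alone reached an unadjusted p under 0.05, beside 14.3% of all genes.

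The machinery that releases the ligands was partly higher in cystic kidneys. Of 10 genes of ligand shedding, 6 were called higher and 0 lower in cystic +/+ kidneys, beside 16.9% and 14.2% of all genes. Their median log2 fold change was 0.27, beside 0.02 over all genes tested, and 4 of the 10 lay below 0 (lowest -0.32). The summed level of the 10 overlapped between the +/+ groups, at 992 to 1136 CPM in noncystic and 1117 to 1151 CPM in cystic mice. *Rhbdf2* and *Rhbdf1*, the iRhoms that carry the protease ADAM17 to the cell surface, rose by 1.08 and 0.60 (edgeR adjusted p = 5.47e-06 and 1.94e-05). The rhomboid protease gene *Rhbdl2* rose by 0.76 (adjusted p = 0.000712). In Δ17/Δ17 kidneys 3 of the 10 were called (beside 23% of all genes), the same *Rhbdf2* (0.62), *Rhbdf1* (0.42) and *Rhbdl2* (0.57). Between the cystic groups 0 were called by edgeR, with 3 at an unadjusted p under 0.05, beside 14.3% of all genes.

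Of 15 adaptors and proximal effectors of the receptors, 5 were higher and 2 lower in cystic +/+ kidneys, beside 16.9% and 14.2% of all genes. Their median log2 fold change was 0.05. The transcription factor gene *Stat3* rose by 1.26 (SE 0.09, edgeR adjusted p = 6.17e-08), the kinase gene *Src* by 0.80 (adjusted p = 6.69e-07) and the adaptor gene *Shc1* by 0.34 (adjusted p = 0.00143). *Eps8*, which encodes an EGFR substrate that acts on actin, fell by 0.81 (adjusted p = 1.45e-05), and *Plcg1*, the gene of a phospholipase, fell by 0.32 (adjusted p = 0.0116). Among cystic kidneys *Stat3* was lower with the deletion (-0.37, adjusted p = 0.0427). It was the only 1 of the 15 called, where 2.23% of all genes were called.

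Of 18 genes of the Ras-MAPK and PI3K-Akt cascades, 4 were higher and 2 lower in cystic +/+ kidneys. That is near the share of all genes called, 31.1% (16.9% higher and 14.2% lower), and the median of 0.03 was close to that of all genes. *Akt1* (0.64, edgeR adjusted p = 1.64e-05) and *Nras* (0.53, adjusted p = 1.49e-05) rose most surely. *Araf* fell by 0.27 (adjusted p = 0.0116) and *Pik3ca* by 0.25 (adjusted p = 0.0211). With the deletion in cystic kidneys, 0 of the 18 were called, with 2 at an unadjusted p under 0.05, beside 14.3% of all genes.

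Genes that restrain ErbB signaling changed in either direction. Of 23, 8 were higher and 3 lower in cystic +/+ kidneys, beside 16.9% and 14.2% of all genes. Their median log2 fold change was 0.23. *Socs3*, the feedback inhibitor of STAT3, rose from 7.57 to 75.4 CPM (3.31, edgeR adjusted p = 1.03e-07), the ERK phosphatase gene *Dusp5* rose by 1.58 (adjusted p = 8.34e-05), and *Cbl*, the ubiquitin ligase that directs EGFR to degradation, rose by 0.62 (adjusted p = 0.000113). *Errfi1*, whose product binds and inhibits the EGFR kinase, fell by 0.74 (adjusted p = 0.000314) and *Lrig1*, which promotes receptor turnover, fell by 0.47 (adjusted p = 0.00394). *Socs5*, of the same inhibitor family as *Socs3*, fell by 0.39, from 44.4 to 34.0 CPM (edgeR adjusted p = 0.00540). In cystic kidneys *Socs3* was lower with the deletion (-1.11, adjusted p = 0.0191). *Socs5* was higher with it (0.45, adjusted p = 0.0233), at 46.4 CPM, near its noncystic +/+ level, while *Errfi1* stood at 0.02.

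Immediate and delayed targets of ERK were mostly higher. Of 15, 10 were called higher and 1 lower in cystic +/+ kidneys, beside 16.9% and 14.2% of all genes. Their median log2 fold change was 0.52. *Egr2* rose from 0.690 to 11.0 CPM (3.98, edgeR adjusted p = 3.27e-06), *Egr1* from 19.8 to 79.4 CPM (adjusted p = 0.000151) and *Myc* from 14.9 to 33.4 CPM (1.17, adjusted p = 2.89e-06). *Ier3*, an early response gene, fell by 0.61 (adjusted p = 0.0283). With the deletion 9 were higher and 1 lower, beside 12.8% and 10.2% of all genes. Between the cystic groups 0 of the 15 were called, with 1 at an unadjusted p under 0.05, beside 14.3% of all genes. These early genes also respond to other signals and to handling of tissue, and whether ErbB receptors drive them here was not tested.

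**Figure D5:**
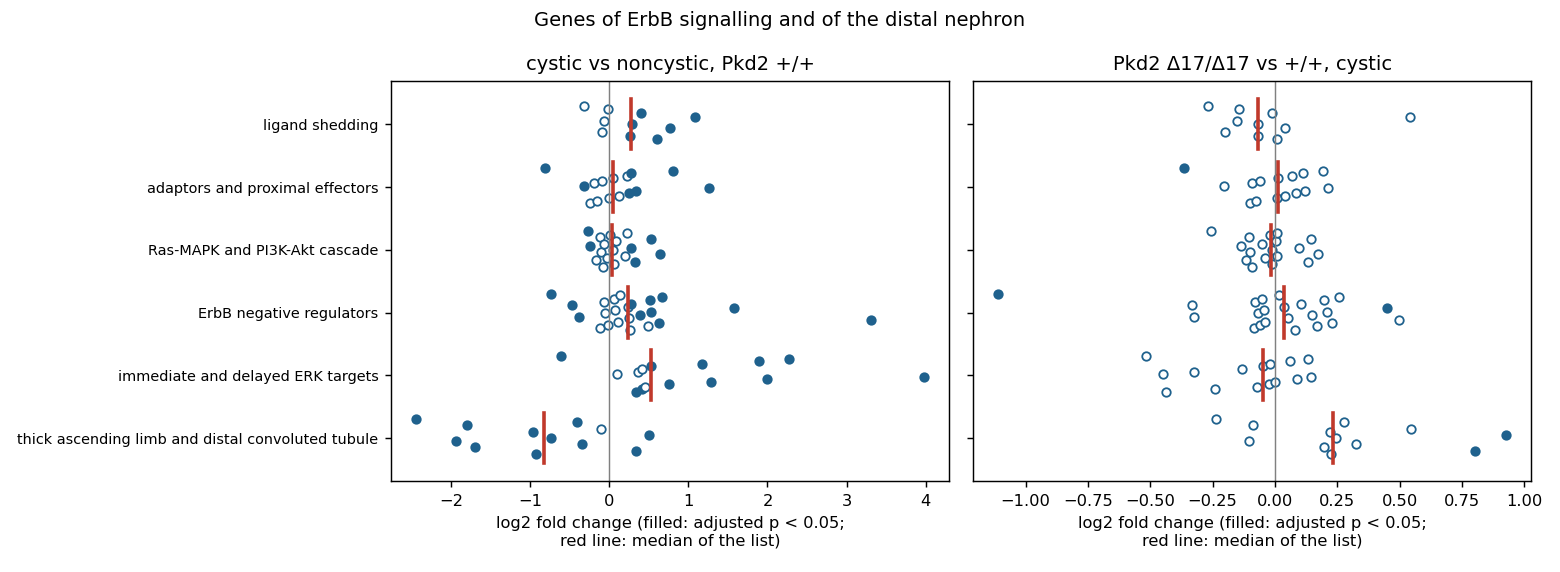
Log2 fold change (horizontal axis) of each gene in 5 lists of ErbB signaling and in the thick ascending limb and distal convoluted tubule list, between cystic and noncystic +/+ kidneys (left panel) and between the cystic groups (right panel, with a narrower axis). Points are genes, filled for an adjusted p under 0.05, and the red line is the median of the list. The median of the distal list is -0.83 on the left and 0.23 on the right.

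Markers of the cells that make *Egf* were mostly lower in cystic +/+ kidneys, by less than *Egf*, and some went the other way. Of 12 markers of the thick ascending limb and distal convoluted tubule, 9 were lower and 2 higher. Their median log2 fold change was -0.83, in a comparison where 14.2% of all genes were called lower and 16.9% higher. *Ppp1r1a*, an inhibitor of protein phosphatase 1, fell by 1.94 (edgeR adjusted p = 2.35e-09), *Calb1*, the calcium buffer of the distal convoluted tubule, by 1.80 (adjusted p = 3.94e-06) and *Slc12a1*, the sodium-potassium-chloride cotransporter of the thick ascending limb, by 0.97 (adjusted p = 2.31e-06). The tight junction genes *Cldn19* (0.50) and *Cldn16* (0.33) rose. *Umod*, which marks the thick ascending limb and is named here after its values were seen, was at 935 and 870 CPM (-0.10, adjusted p = 0.689). The summed level of the 12 markers was 4457 to 5523 CPM in noncystic and 2438 to 3117 CPM in cystic +/+ mice, none of the 12 was at 0 in all mice, and their part in the change of *Egf* was not tested.

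Between the cystic groups 2 of the 12 distal markers were called, beside 2.23% of all genes, with a list median of 0.23. Both were higher with the deletion, *Slc12a1* by 0.93 and *Ppp1r1a* by 0.80 (edgeR adjusted p = 0.000704 for each). Of the 12, 9 lay above 0 and 3 below. The list was chosen with earlier results of these data known, that of *Ppp1r1a* among them, so these calls are no independent support. The summed level of the 12 markers was 4107 to 4467 CPM in cystic Δ17/Δ17 mice, above all cystic +/+ mice. *Egf* differed by 1.12 in the same comparison, and the part of these cells in it was not tested.

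Markers of other cell types and states also differed between cystic and noncystic +/+ kidneys, where 16.9% of all genes were called higher and 14.2% lower. By the same edgeR test, macrophage markers rose, 10 of 10, with *Mrc1* at 1.89 and *C1qb* at 1.87, and their summed level went from 196 to 201 CPM in noncystic to 488 to 670 CPM in cystic +/+ mice. All 11 cell cycle genes (among them *Mcm5* at 1.58) and 8 of 10 tubule injury genes (*Lcn2* at 4.06) rose, as did 6 of 10 fibroblast and matrix genes, with 2 lower. Proximal tubule markers fell, 10 of 10, with *Slc13a3* at -1.42, while of 11 collecting duct markers 5 rose, led by *Hsd11b2* (1.75), and 2 fell. Of 6 podocyte markers 5 fell and 1 rose, of 6 endothelial markers 3 fell, and of 7 lymphocyte markers 2 rose and 1 fell. Between the cystic groups 5 macrophage and 5 tubule injury genes were lower with the deletion, beside 1.04% of all genes. Higher were 3 proximal tubule markers and the endothelial marker *Tek*, beside 1.19% of all genes. Of the collecting duct, podocyte, lymphocyte, fibroblast and cell cycle genes 0 were called by edgeR. At an unadjusted p under 0.05 stood 5, 4, 2, 3 and 0 of them, beside 14.3% of all genes. Whether these marker changes carry the ligand changes was not tested.

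Genes whose pattern over the 12 mice was most like that of a called ligand were looked up among 13690 genes by the root mean square difference of log2 CPM centred on each gene's mean. For *Egf* they were *Dusp15* (0.333 log2 units) and *Pck1*, a gene of gluconeogenesis (0.369), for *Btc* *Mcoln3* (0.190) and *Scn8a* (0.214), for *Tgfa* *Aldh18a1* (0.160) and *Slc25a24* (0.169), and for *Hbegf* *Apc2* (0.104) and *Ajuba* (0.109). *Dusp15* fell from 25.9 to 4.59 CPM in +/+ kidneys with cysts and stood at 10.7 CPM in cystic Δ17/Δ17 kidneys. *Mcoln3* stood at 31.0 CPM in noncystic and 219 CPM in cystic +/+ kidneys. No member of the family was among these nearest genes of another member.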

How the data were processed

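Per the submitters' processing notes, Trim Galore 0.6.3 and STAR 2.5.3a were used on GRCm38. The authors deposited raw counts of reads per gene for 12 mice, not normalized. The strand setting of the counting was not given in the sources used here. Coordinates, exon lengths and 3′-UTRs came from GENCODE M21 (GRCm38), in which 99.93% of the gene IDs were found, and mature miR-17 from RefSeq.

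The fit used edgeR 4.0.16 (R 4.3.3) with a cutoff of -3 on the average log2CPM (prior count 2), TMM factors, a mean for each of the 4 groups (12 mice, 8 residual degrees of freedom), the quasi-likelihood test and Benjamini-Hochberg adjustment over 24642 genes, with a threshold of 0.05. Over the 13848 genes past an average log2CPM of 1, log2 fold changes had a median standard error of 0.11. Mice of a group differed by more than sampling noise (chi-square per degree of freedom 8.88 to 24.3). The test was tested on simulated data.

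Alternatives were limma-trend (limma 3.58.1, library totals, prior count 3, the method of the study), DESeq2 1.42.0, library totals or DESeq2 size factors in edgeR, filterByExpr, no cutoff, a minimum of 10 counts in every mouse, the compared groups only, sex as a covariate, an adjusted p under 0.01, the longest transcript as length, and leaving out each mouse.

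The members and the 16 gene lists were chosen with earlier results of these data known. Named were all members, the other ErbB ligands, *Pkd1*, *Pkd2*, in each list up to 3 called genes a direction with the smallest adjusted p between cystic and noncystic +/+ kidneys and between the cystic groups, and the 2 genes nearest in pattern to each called member with an average log2CPM of at least 1. Of these, those that carry the comparison are printed.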

Additional observations from a re-analysis of the deposited data

How the results depend on the processing

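No paired analysis was possible because each mouse number occurs in 1 group only. Over the settings other than leaving out a mouse, 400 results kept direction and side of the threshold, 13 passed it newly, 1 was lost and 6 reversed, and leaving out a mouse gave 335, 2, 4 and 19. *Egf*, *Btc*, *Hbegf* and *Tgfa* in both cystic-to-noncystic comparisons, and *Egf* between the cystic groups, were called under every alternative. Without the cutoff on low counts, 2 members were called higher (*Egf* and *Erbb4*) and 1 lower (*Btc*) between the cystic groups. In that setting 1 was higher (*Erbb3*) between the noncystic groups, and 1 higher (*Egf*) and 1 lower (*Tgfa*) for the interaction. DESeq2 called 1 lower (*Btc*) between the cystic groups and 1 higher (*Egf*) for the interaction. The cause was not tested. Leaving out a mouse moved the members called lower in cystic +/+ kidneys from 1 to 2 (*Erbb4*, without noncystic mouse 20) and those called higher for the interaction from 0 to 1 (*Egf*, without cystic mouse 25).

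Small differences changed sign. *Egfr* and *Erbb3* in Δ17/Δ17 kidneys became 0.11 and 0.091 with library totals and 0.11 and 0.087 with limma-trend, and with sex in the fit *Egfr* and *Erbb4* between the noncystic groups became -0.014 and -0.027. Leaving out a mouse, the ranges that crossed 0 were -0.040 to 0.093 for *Egfr* in cystic against noncystic +/+ kidneys, -0.34 to 0.83 for *Areg*, -0.0059 to 1.19 for *Ereg*, -0.11 to 0.031 for *Egfr* and -0.13 to 0.032 for *Erbb3* in cystic against noncystic Δ17/Δ17 kidneys, -0.0040 to 0.083 for *Erbb2* between the cystic groups, -0.33 to 0.027 for *Btc*, -0.079 to 0.070 for *Egfr* and -0.13 to 0.16 for *Erbb4* between the noncystic groups, -0.21 to 0.076 for *Hbegf* and -0.15 to 0.0039 for *Egfr* for the interaction. With the longest transcript as length, the *Egf* share was 96.8, 97.4, 51.9 and 75.1%. *Areg* and *Ereg* lie at the limit of this depth, and neither could be fitted with at least 10 counts in every mouse.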
